A study of Homo sapiens with 5 samples.

Results

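The peaks described here are those on the sequences of the human genome build hg19 (GRCh37) that are not chromosomes 1 to 22, X or Y. They were chosen by the chromosome name in 5 deposited ChIP-seq peak lists, with no use of any measured value. They numbered 1078 of 123989 peaks and lay on 48 sequences. Of these peaks, 8 were on the mitochondrial genome and 23 on chrUn_gl000220, an unplaced contig that carries ribosomal DNA (rDNA). A further 396 lay on 22 other unplaced contigs, 236 on 15 unlocalized contigs, which are assigned to a chromosome but to no position on it, and 415 on 9 alternate haplotype sequences.

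The study asked where ATF3, a stress-inducible transcription factor of the ATF/CREB family, and the tumor suppressor p53 bind in HCT116, a cell line from a human colorectal cancer, before and after DNA damage by camptothecin (CPT), which traps topoisomerase I on DNA. ATF3 was precipitated from ATF3-WT cells that received DMSO (ATF3-Ctrl) or CPT at 1.5 μM over 4 h (ATF3-CPT), and from knockout cells that received DMSO (ATF3-KO). p53 was precipitated from p53-WT cells given the same CPT treatment (p53-CPT) and from p53-KO cells given DMSO, so these libraries differ in genotype as well as treatment. Each condition had 1 library and there were no replicates, so no difference between conditions could be tested and every interval below covers counting error only. The ATF3-KO cells were made by recombination with a viral vector at exon 3 of ATF3 and grown from single clones. With the target removed, the knockout lists show what the same antibody brings down without it. The libraries held between 1984941 (p53-KO) and 15457013 (ATF3-CPT) tags, that is, aligned reads, and between 0.56% (ATF3-KO) and 12.76% (ATF3-CPT) of the tags lay in peaks. The lists held 33966 (ATF3-Ctrl), 70702 (ATF3-CPT), 2231 (ATF3-KO), 9211 (p53-CPT) and 7879 (p53-KO) peaks. The tag thresholds set by the false discovery rate were 9, 9, 11, 7 and 6 tags in the same order. They correspond to 6.95, 5.82, 8.58, 22.08 and 30.23 tags per 10000000, so a weak peak could enter the ATF3 lists more easily than the p53 lists. The weakest peaks listed had 5.4, 4.5, 6.2, 18.9 and 25.2 tags per 10000000, below these values.

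A cell holds many copies of the circular mitochondrial genome, whose control region carries the start sites of replication and transcription. The rRNA genes form tandem arrays in the nucleolus in which 18S, 5.8S and 28S sequences lie in that order. Unplaced and unlocalized contigs hold sequence that the assembly could not position, much of it satellite repeats of centromeres and neighbouring heterochromatin. Alternate haplotype sequences repeat a stretch of a chromosome as it occurs in other people. The best known are the versions of the major histocompatibility complex (MHC) of chromosome 6.

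The sequences on which the results turn are shown first, all on the plus strand of GRCh37. The first pair are the peaks with the highest normalized tag count and the highest score among unplaced contigs in ATF3-Ctrl, and the capitals mark TGATGNAA, the core of the composite site of C/EBP and ATF factors.
chrUn_gl000225:67484-67610 (ATF3-Ctrl): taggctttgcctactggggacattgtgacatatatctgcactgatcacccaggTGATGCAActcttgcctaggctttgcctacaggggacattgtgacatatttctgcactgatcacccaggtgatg
chrUn_gl000225:120577-120703 (ATF3-Ctrl): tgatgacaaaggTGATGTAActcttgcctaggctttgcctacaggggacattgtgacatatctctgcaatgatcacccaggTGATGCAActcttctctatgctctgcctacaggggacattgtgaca
The next is the strongest peak on the rDNA-bearing contig in the ATF3 lists, and the capitals mark the AP-1 core TGACTCA, to which dimers of FOS, JUN and ATF proteins bind.
chrUn_gl000220:55339-55463 (ATF3-CPT): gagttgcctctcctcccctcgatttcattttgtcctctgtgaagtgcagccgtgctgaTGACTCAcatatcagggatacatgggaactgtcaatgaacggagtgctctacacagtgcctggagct
The next lies in a region found in all 5 lists and had the highest score outside chromosomes 1 to 22, X and Y in ATF3-KO. The capitals mark a match to the CENP-B box, the element of alpha satellite DNA that the centromere protein CENP-B binds.
chr9_gl000199_random:34359-34557 (ATF3-KO): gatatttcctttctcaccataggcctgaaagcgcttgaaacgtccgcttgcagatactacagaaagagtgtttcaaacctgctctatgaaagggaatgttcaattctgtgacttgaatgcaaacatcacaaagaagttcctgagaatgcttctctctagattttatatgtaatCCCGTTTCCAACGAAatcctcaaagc
The next was also found in all 5 lists, and the capitals mark CATTC, the unit of human satellites II and III.
chrUn_gl000216:1741-1939 (ATF3-KO): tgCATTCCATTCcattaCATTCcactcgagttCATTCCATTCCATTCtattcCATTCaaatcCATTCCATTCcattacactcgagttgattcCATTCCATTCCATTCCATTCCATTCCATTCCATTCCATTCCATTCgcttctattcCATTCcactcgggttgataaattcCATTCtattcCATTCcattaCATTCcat

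Off-chromosome peaks made up a larger share of the ATF3-KO list than of any other. They were 82 of 2231 peaks in ATF3-KO, or 3.68% (95% Wilson interval 2.97 to 4.54). The share was 0.839% (0.747 to 0.942) in ATF3-Ctrl, with 285 peaks, and 0.666% (0.609 to 0.729) in ATF3-CPT, with 471. It was 1.40% (1.18 to 1.66) in p53-CPT, with 129 peaks, and 1.41% (1.17 to 1.69) in p53-KO, with 111. The intervals of the p53 lists overlapped each other, and that of ATF3-KO overlapped none. The order of ATF3-Ctrl and the p53 lists depended on the threshold. With only peaks of at least 30.2 tags per 10000000, the value of the p53-KO threshold, the share was 3.95% in ATF3-Ctrl, 0.722% in ATF3-CPT, 13.8% in ATF3-KO, 1.65% in p53-CPT and 1.47% in p53-KO.

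**Figure D1:**
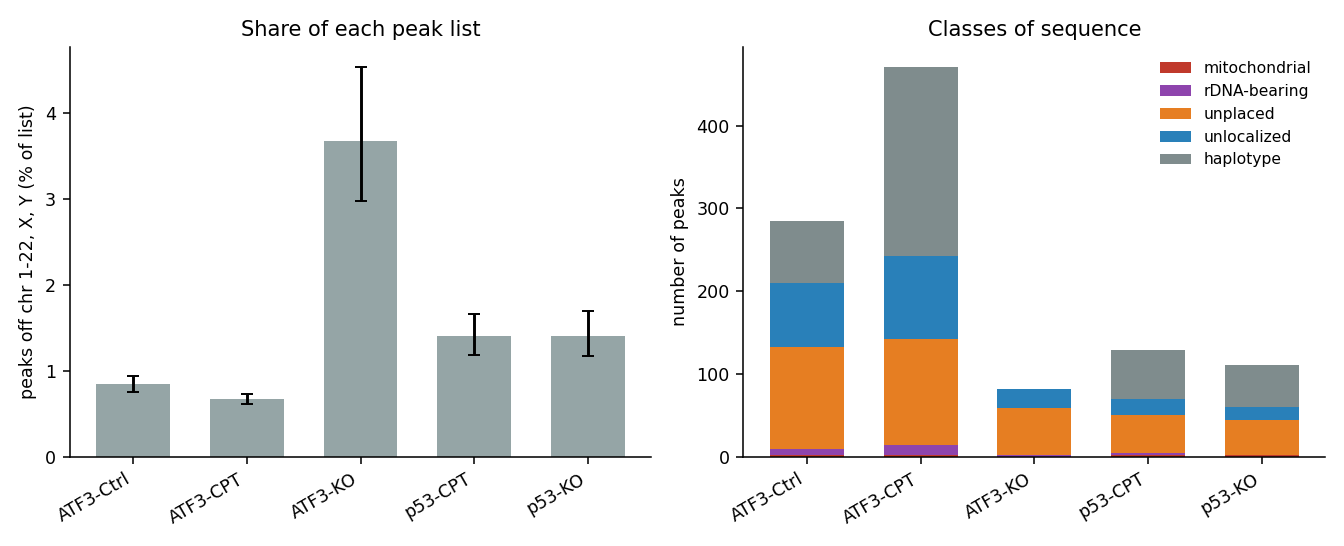
Left, the share of each list that lies off chromosomes 1 to 22, X and Y, as a percentage with 95% Wilson intervals. Right, the number of such peaks by class of sequence. ATF3-KO stands highest on the left with 3.68% and has no haplotype segment on the right, where ATF3-CPT has 229 haplotype peaks.

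The classes were not the same from list to list. In ATF3-KO, 57 of 82 peaks lay on unplaced and 23 on unlocalized contigs, 2 on the rDNA-bearing contig, and none on the mitochondrial genome or on a haplotype sequence. In ATF3-CPT, haplotype peaks were the largest class, with 229 of 471 (48.6%, 44.1 to 53.1). ATF3-Ctrl had 75 haplotype peaks of 285 (26.3%, 21.5 to 31.7). The haplotype share was 46.5% in p53-CPT and 45.9% in p53-KO, with 60 and 51 peaks. Unplaced contigs held 123 peaks in ATF3-Ctrl, 128 in ATF3-CPT, 46 in p53-CPT and 42 in p53-KO. From ATF3-Ctrl to ATF3-CPT the whole list grew from 33966 to 70702 peaks, while the unplaced class differed by 5 peaks.

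The reference holds 59 of the contigs in 6.11 Mb of sequence. In every list, peaks were denser there than on chromosomes 1 to 22, X and Y. The density was 2.89 times that of the chromosomes in ATF3-Ctrl (exact Poisson interval 2.51 to 3.31) and 1.599 times in ATF3-CPT (1.40 to 1.81). It was 17.9 times in ATF3-KO (14.2 to 22.2), 3.45 times in p53-CPT (2.67 to 4.38) and 3.49 times in p53-KO (2.65 to 4.52). The peaks were not spread evenly, since 21 of the 59 contigs had none in any list. A pair of contigs, chrUn_gl000225 and chrUn_gl000216, held 92, 97, 45, 32 and 25 peaks in ATF3-Ctrl, ATF3-CPT, ATF3-KO, p53-CPT and p53-KO. These were between 59.5% (p53-KO) and 78.9% (ATF3-KO) of the unplaced peaks of a list. Among unlocalized contigs, chr9_gl000199_random had the most peaks in all, with 25, 26, 8, 4 and 7 in the same order.

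The mitochondrial genome had the same pair of peaks in every list but ATF3-KO. They lie near either end of the numbering, which are neighbours on the circle, within or next to the control region. In the following, the normalized tag count is the number of tags in the peak for every 10000000 tags of its library. The peak at the low end of the numbering had 828.0 (exact Poisson interval 779.1 to 879.0) in ATF3-Ctrl, at chrM:103-229, and 724.6 (682.8 to 768.3) in ATF3-CPT. In the p53 libraries it had 4543.0 (4311 to 4784) in p53-CPT and 2670.1 (2448 to 2907) in p53-KO, where the mitochondrial peaks spanned 270 to 318 bp against 124 to 126 bp in the ATF3 lists. The peak at the high end had 597.0 (555.7 to 640.6) in ATF3-Ctrl, at chrM:16044-16170, 630.1 (591.2 to 671.0) in ATF3-CPT, 4009.8 (3792 to 4236) in p53-CPT and 3184.0 (2941 to 3442) in p53-KO. By this count the mitochondrial peaks ranked between 4 and 18 among all peaks of their lists. No gene or sequence is given for them because the hg19 mitochondrial sequence was not used here.

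After CPT the mitochondrial ATF3 peaks were at 0.875 and 1.06 times their ATF3-Ctrl normalized tag counts, while the median of 26906 pairs of overlapping peaks on chromosomes 1 to 22, X and Y was 1.81. In the p53 libraries, p53-CPT was at 1.70 and 1.26 times p53-KO on the mitochondrial genome, against a median of 0.668 over 5532 pairs on the chromosomes. The mitochondrial peaks were thus present with the p53 antibody in cells that lack p53. A peak list does not give the level in ATF3-KO, where only peaks with a score of at least 11 that passed a local and a clonal filter were kept. Whether the mitochondrial tags were few or were filtered there was not tested.

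The contig chrUn_gl000220 was taken as rDNA-bearing from its sequence. The annotated 5.8S pseudogene RNA5-8SP6 matched it at 2 places with 94.6% identity over 149 bases, 112025-112173 and 155997-156145, and none of the 5.8S pseudogenes searched matched another contig. The matches are 43972 bp apart on a contig of 161802 bp, so most of the contig lies outside the rRNA genes. It had 7 peaks in ATF3-Ctrl, 12 in ATF3-CPT, 2 in ATF3-KO, 2 in p53-CPT and none in p53-KO. Of these 23 peaks, 6 had their centre within 20 kb of a 5.8S match.

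The strongest ATF3 peak of the contig lay at 55339-55463, with its centre 56624 bp before the first 5.8S match, and contains the AP-1 core shown above. Its normalized tag count was 41.7 (31.3 to 54.4) in ATF3-Ctrl and 77.6 (64.4 to 92.8) in ATF3-CPT, a ratio of 1.86, and the ATF3-KO, p53-CPT and p53-KO lists had no peak there. On the contig, 7 of 12 ATF3-CPT peaks and 2 of 7 ATF3-Ctrl peaks held an AP-1 core. The ATF3-Ctrl share was close to that of the chromosomal peaks, given below, and the ATF3-CPT share was above it, on few peaks. The strongest peak of all on the contig belonged to p53-CPT, at 161102-161420, with 479.5 (406.3 to 562.1). It lies 5264 bp beyond the start of the last 5.8S match, on the side of the 28S gene, close to the contig's end. ATF3-CPT had a peak of 16.8 at the same place. Neither knockout list had a peak there, and the lowest peaks of p53-KO were at 25.2. The p53-CPT peak exceeded its surrounding 10 kb by 4.1-fold, just above the limit of 4. Whether the tags in p53-KO were few or were filtered there was not tested.

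Peaks on unplaced contigs were stronger than those on the chromosomes in each list. Their median normalized tag count was 49.4 against 10.0 on the chromosomes in ATF3-Ctrl, and 17.8 against 11 in ATF3-CPT. In ATF3-KO it was 28.1 against 11.7, in p53-CPT 74.15 against 41.0 and in p53-KO 90.7 against 60.5. The gap was widest in ATF3-Ctrl. Unlocalized contigs had medians of 17.4, 12.9, 20.3, 41.0 and 83.15 in the same order of lists. The few peaks on the rDNA-bearing contig had medians of 16.2 in ATF3-Ctrl, which was the upper quartile of the chromosomal peaks, and 12.25 in ATF3-CPT. Haplotype peaks were weaker than chromosomal ones in the ATF3 lists, with medians of 8.5 and 7.8, while those of the p53 lists, 47.3 and 55.4, lay on either side of the chromosomal 41.0 and 60.5.

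**Figure D2:**
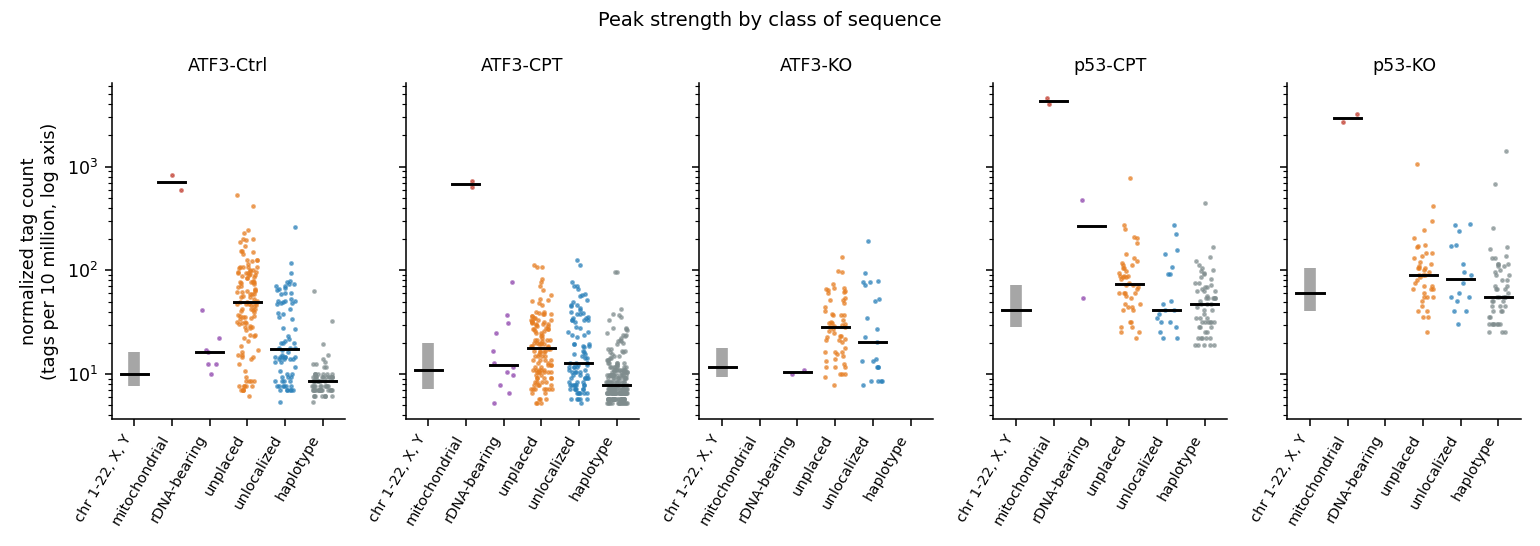
Normalized tag count of each peak (log axis, tags per 10000000) by class of sequence and list. Points are peaks and horizontal lines are medians, and the grey bar spans the quartiles of chromosomal peaks. Mitochondrial peaks lie highest in the 4 lists that have them, and unplaced peaks lie above the chromosomal median in every list.

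The order by findPeaks score, which counts at most 1 tag per position and is not scaled to depth, was similar. The median score of unplaced peaks was 47 against 13 on the chromosomes in ATF3-Ctrl, 23 against 16 in ATF3-CPT, 33 against 15 in ATF3-KO, 22 against 12 in p53-CPT and 16.5 against 10 in p53-KO. The peaks stood out less from their surroundings than chromosomal peaks did. The fold over the surrounding 10 kb had a median of 7.35 on unplaced contigs against 13.4 on the chromosomes in ATF3-Ctrl, 7.28 against 13.03 in ATF3-CPT, 5.60 against 9.19 in ATF3-KO, 8.48 against 21.8 in p53-CPT and 8.40 against 32.5 in p53-KO. The focus ratio, the fraction of tags near the centre of a peak, had a median of 0.7485 on unplaced contigs and 0.900 on the chromosomes in p53-CPT, and 0.739 and 0.917 in p53-KO. In ATF3-Ctrl it was 0.800 for both.

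Single unplaced peaks differed widely. The highest of the ATF3 lists was chrUn_gl000225:67484-67610 in ATF3-Ctrl, with 530.6, where ATF3-CPT had 111.9, ATF3-KO 60.1, p53-CPT 113.6 and p53-KO 131.0. On chrUn_gl000228 the ATF3-Ctrl peak at 116998-117124 had 197.7 (174.2 to 223.5), ATF3-CPT 108.0 (92.3 to 125.7) and ATF3-KO 36.7, with no overlapping p53 peak. On chrUn_gl000222, p53-CPT had 274.5 and p53-KO 418.1 at 81568-81886, and no ATF3 list had a peak. The p53-KO value there was above that of p53-CPT, as it was in 4774 of 5611 (85.1%) pairs of overlapping p53-CPT and p53-KO peaks.

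Among unlocalized contigs, chr9_gl000199_random had the highest normalized tag count of ATF3-Ctrl and ATF3-KO. At 34300-34618 it had 263.4 in ATF3-Ctrl, 111.9 in ATF3-CPT, 191.1 in ATF3-KO, 271.3 in p53-CPT and 236.8 in p53-KO. The peak size was 126, 124, 198, 318 and 310 bp in the same order. The counts were not adjusted for it, so lists of unlike peak size cannot be ranked by them. The peak of chr7_gl000195_random at 32524-32648 was the strongest unlocalized peak of ATF3-CPT, with 125.5 (108.5 to 144.5) against 71.1 in ATF3-Ctrl, and no other list had a peak there. At 31752-32221 on the same contig the values were 67.2 in ATF3-Ctrl, 69.9 in ATF3-CPT, 34.3 in ATF3-KO and 41.0 in p53-CPT. In the p53 lists, chr17_gl000204_random had 157.7 in p53-CPT and 272.0 in p53-KO at 56917-57235 and chr9_gl000201_random had 142.0 and 282.1 at 11854-12178, with no ATF3 peak at either. A lower count in p53-CPT was the common case over all such pairs, as given above.

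The chromosome 6 haplotypes, which are 7 versions of the MHC region, had 58 peaks in ATF3-Ctrl, 185 in ATF3-CPT, 53 in p53-CPT and 45 in p53-KO. On chromosome 6 itself the MHC between HLA-F and HLA-DPB1 (chr6:29690552-33057473), genes of antigen presentation, had 5 peaks in ATF3-Ctrl, 29 in ATF3-CPT, none in ATF3-KO, 5 in p53-CPT and 3 in p53-KO. The number on a single haplotype ranged from 9 to 42 in ATF3-CPT and from 1 to 16 in ATF3-Ctrl. The haplotype sequences are longer than this window, with peaks up to position 4866525 of chr6_ssto_hap7, so the counts cover unlike lengths. The chromosome 17 haplotype chr17_ctg5_hap1 had 16 peaks in ATF3-Ctrl, 42 in ATF3-CPT, 5 in p53-CPT and 4 in p53-KO, and the chromosome 4 haplotype chr4_ctg9_hap1 had 1 or 2 in each list but ATF3-KO, which had no haplotype peak.

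The strongest haplotype peaks of the ATF3 lists were on chr17_ctg5_hap1. The peak at 1640341-1640467 had 63.3 (50.4 to 78.6) in ATF3-Ctrl and 95.7 (80.95 to 112.5) in ATF3-CPT, and the peak at 1084287-1084413 had 32.4 (23.4 to 43.85) and 97 (82.1 to 113.9). The strongest haplotype peak of p53-CPT, at chr6_ssto_hap7:2785295-2785613, had 444.8 (374.4 to 524.6), and p53-KO had 685.2 (574.85 to 810.5) there. The strongest of p53-KO, at chr6_dbb_hap3:2739871-2740181, had 1425.7 (1264 to 1602) and a Clonal Fold Change of 1.85, near the limit of 2. No other list had a peak there.

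Clonal Fold Change is the expected number of distinct tag positions in a peak over the number observed, so that values above 1 mean that tags share positions more than expected. Peaks above 2 had been removed, which took 24, 14, 31, 509 and 582 putative peaks from ATF3-Ctrl, ATF3-CPT, ATF3-KO, p53-CPT and p53-KO. In ATF3-Ctrl, 71 of 285 off-chromosome peaks were above 1 (24.9%), against 6.54% of all peaks. In ATF3-CPT the number was 74 of 471 (15.7%) against 5.32%, and in ATF3-KO 44 of 82 (53.7%) against 21.4%. The p53 lists did not share this order. There, 62 of 129 (48.1%, 39.6 to 56.6) in p53-CPT and 54 of 111 (48.6%, 39.6 to 57.8) in p53-KO were above 1, against 54.2% and 60.2% of all peaks, so that only the p53-KO interval left out the share of the whole list.

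In the ATF3 lists the share was highest on unplaced and unlocalized contigs. Of the unplaced peaks, 47 of 123 (38.2%) in ATF3-Ctrl, 43 of 128 (33.6%) in ATF3-CPT and 34 of 57 (59.6%) in ATF3-KO were above 1. Of the unlocalized peaks, 17 of 78, 19 of 100 and 10 of 23 were. Haplotype peaks were near the whole list, with 7 of 75 (9.33%) in ATF3-Ctrl and 10 of 229 (4.37%) in ATF3-CPT. In the p53 lists the unplaced share was 23 of 46 in p53-CPT and 33.3% in p53-KO (14 of 42, 21.0 to 48.4), whose interval lay below the share of the whole list. The mitochondrial class had the lowest median in each list that had such peaks, and its single peaks had values between 0.50 and 0.56 in the ATF3 lists and between 0.65 and 0.87 in the p53 lists. On the rDNA-bearing contig 2 peaks of ATF3-CPT were above 1 and no peak of another list was.

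**Figure D3:**
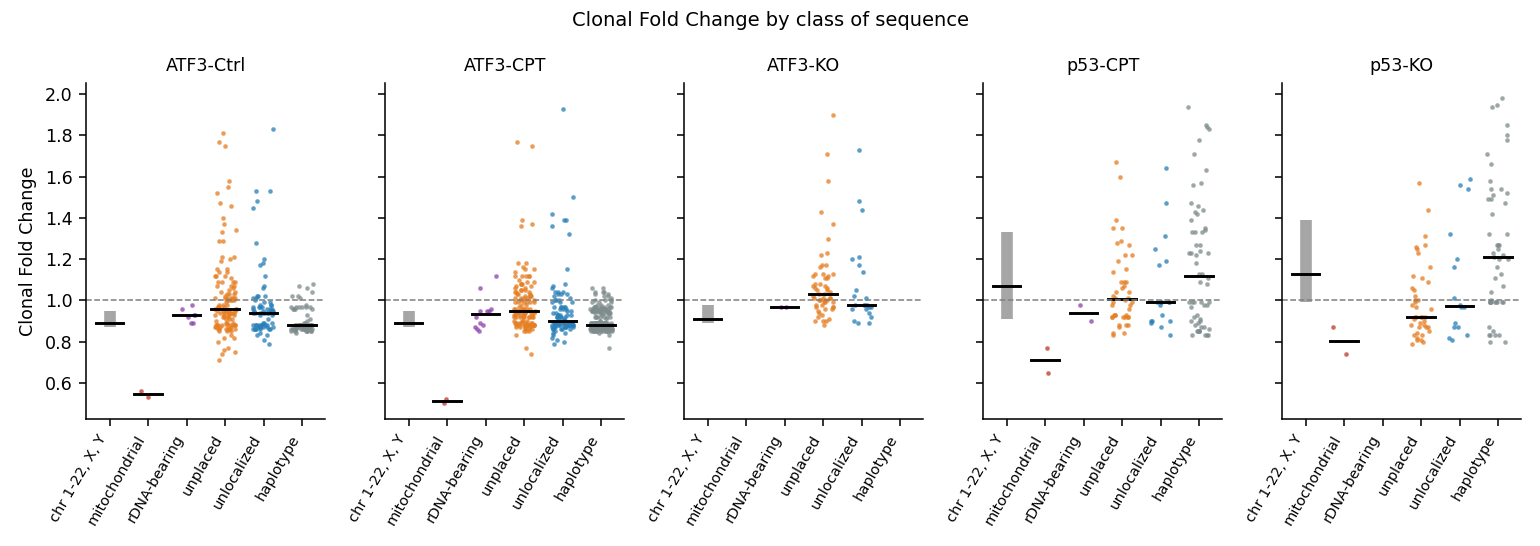
Clonal Fold Change (expected over observed distinct tag positions) of each peak by class of sequence and list. Points are peaks, horizontal lines medians, the grey bar the chromosomal quartiles, and the dashed line marks 1. Mitochondrial peaks have the lowest class medians, and the chromosomal medians are 0.89 to 0.91 in the ATF3 lists and 1.07 and 1.13 in the p53 lists.

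Off-chromosome peaks of ATF3-Ctrl and ATF3-CPT overlapped ATF3-KO peaks more often than all peaks of those lists did. In ATF3-Ctrl, 66 of 285 (23.2%, 18.6 to 28.4) shared at least 1 bp with an ATF3-KO peak, against 5.38% of all ATF3-Ctrl peaks. In ATF3-CPT, 62 of 471 (13.2%, 10.4 to 16.5) did, against 2.60%. On unplaced contigs the shares were 37.4% (46 of 123) and 33.6% (43 of 128), on unlocalized contigs 19 of 78 and 18 of 100, and on haplotypes 0 of 75 and 0 of 229. ATF3-CPT peaks with a score of 20 or more overlapped ATF3-KO in 43 of 173 cases off the chromosomes (24.9%) and in 4.77% on them, and for lower scores in 19 of 298 (6.38%) and 0.9398%, so the difference was present at both levels of strength.

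The knockout lists also shared peaks with each other. In ATF3-KO, 33 of 82 (40.2%, 30.3 to 51.1) overlapped a p53-KO peak, against 10.3% of all ATF3-KO peaks, and 33 of 111 (29.7%, 22.02 to 38.8) p53-KO peaks overlapped ATF3-KO, against 2.91%. Of the unplaced peaks of p53-KO, 28 of 42 (66.7%) had an ATF3-KO peak. Between the CPT-treated libraries, 40 of 129 p53-CPT peaks (31.01%, 23.7 to 39.4) overlapped ATF3-CPT, against 10.5% of all, and 40 of 471 ATF3-CPT peaks (8.49%, 6.30 to 11.4) overlapped p53-CPT, against 1.38%. No haplotype peak of an ATF3 list overlapped a p53 peak.

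In the following comparisons the share was close to that of all peaks or below it. In ATF3-Ctrl, 198 of 285 (69.5%, 63.9 to 74.5) had an ATF3-CPT peak, less than the 79.8% of all peaks, and 198 of 471 (42.0%, 37.7 to 46.5) ATF3-CPT peaks had an ATF3-Ctrl peak, against 38.3%. In ATF3-KO, 65 of 82 (79.3%) overlapped ATF3-Ctrl, against 81.9%. In p53-CPT, 79 of 129 (61.2%) overlapped p53-KO, against 60.9%, and 79 of 111 (71.2%) p53-KO peaks overlapped p53-CPT, against 71.2%.

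**Figure D4:**
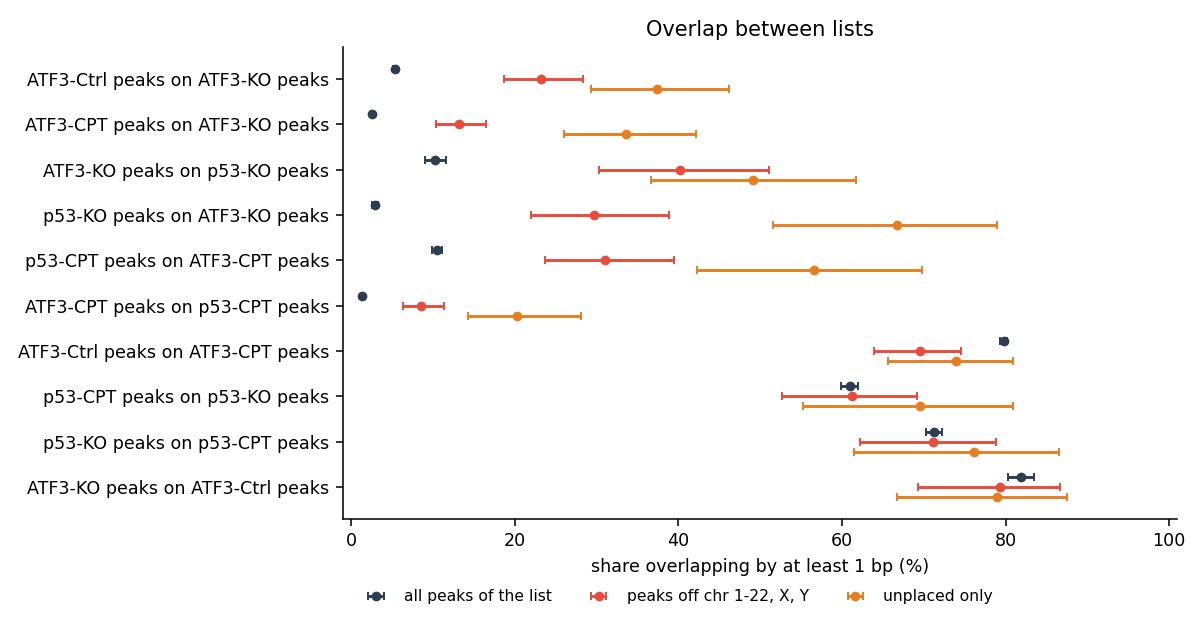
Share of the peaks of a list that overlap a peak of another list by at least 1 bp, as a percentage with 95% Wilson intervals, for all peaks, off-chromosome peaks and unplaced peaks. In the top 6 rows off-chromosome peaks lie to the right of all peaks (23.2% against 5.38% in the first). In the lower rows they lie close to or below them.

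Joining peaks that shared at least 1 bp gave 668 off-chromosome regions. Of these, 398 were in 1 list, 196 in 2, 32 in 3, 21 in 4 and 21 in all 5. The largest groups were 260 regions in ATF3-CPT alone, 136 in ATF3-Ctrl and ATF3-CPT, 76 in ATF3-Ctrl alone and 48 in p53-CPT and p53-KO. Both knockout lists held 33 regions. Of the 21 regions in all lists, 9 lay on chrUn_gl000225, 8 on chrUn_gl000216, 2 on chr9_gl000199_random and 1 each on chrUn_gl000214 and chrUn_gl000212. The 88 haplotype regions in more than 1 list each joined lists of the same antibody.

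The 21 regions in all lists were lower in ATF3-CPT than in ATF3-Ctrl throughout. The ratio of normalized tag counts ranged from 0.211 to 0.531 with a median of 0.310, and the exact interval of the ratio lay below 1 for each. Over all pairs of overlapping ATF3-Ctrl and ATF3-CPT peaks, the interval lay below 1 for 917 of 27104. At chrUn_gl000225:133584-133923 the values were 243.3 in ATF3-Ctrl, 70.5 in ATF3-CPT, 54.6 in ATF3-KO, 104.1 in p53-CPT and 110.8 in p53-KO. At chrUn_gl000216:163396-163726 they were 200.8, 58.2, 95.9, 183.0 and 206.6 in the same order. The simple-repeat region at chrUn_gl000216:1671-1994, which contains the CATTC sequence shown above, had 143.7, 76.3, 134.2, 249.2 and 176.3, so that ATF3-KO was close to ATF3-Ctrl there. At chrUn_gl000214:64258-64576 the values were 92.7, 48.5, 97.5, 205.1 and 246.9. Relative to ATF3-Ctrl, ATF3-KO ranged from 0.113 to 1.28 with a median of 0.527, below 1 in 19 regions and with an interval below 1 in 14. Over all 1829 such pairs the median was 0.664, 1423 (77.8%) were below 1 and 734 had an interval below 1. Relative to p53-KO, p53-CPT had a median of 0.867 and no interval that left out 1. Over all 5611 such pairs the median was 0.668, with 1321 intervals below 1 and 11 above. Peaks were 198 bp wide in ATF3-KO and 126 bp in ATF3-Ctrl, and the counts were not adjusted for width.

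The lower level after CPT was also found over all pairs on unplaced contigs. Of the 123 unplaced ATF3-Ctrl peaks, 92 lay on chrUn_gl000225 and chrUn_gl000216, and the other unplaced contigs were not examined apart. Of 198 off-chromosome ATF3-Ctrl peaks with an ATF3-CPT peak, 134 (67.7%, 60.9 to 73.8) had a lower normalized tag count in ATF3-CPT, against 19.6% of all such pairs. On unplaced contigs the number was 88 of 91 with a median ratio of 0.334, and for 83 the exact interval of the ratio lay below 1, against 917 of 27104 over all pairs. On unlocalized contigs it was 30 of 48 with a median of 0.653. Haplotype pairs were nearer to the chromosomes, with 14 of 52 lower and a median of 1.52 against 1.81, and the 5 pairs on the rDNA-bearing contig had a median of 1.16. Among ATF3-Ctrl peaks that also overlapped ATF3-KO, the median ratio was 0.401 off the chromosomes (56 pairs) and 1.08 on them (1598 pairs). Tags in peaks were 5.60% of the ATF3-Ctrl and 12.76% of the ATF3-CPT library, and the part of this in the ratios was not tested.

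**Figure D5:**
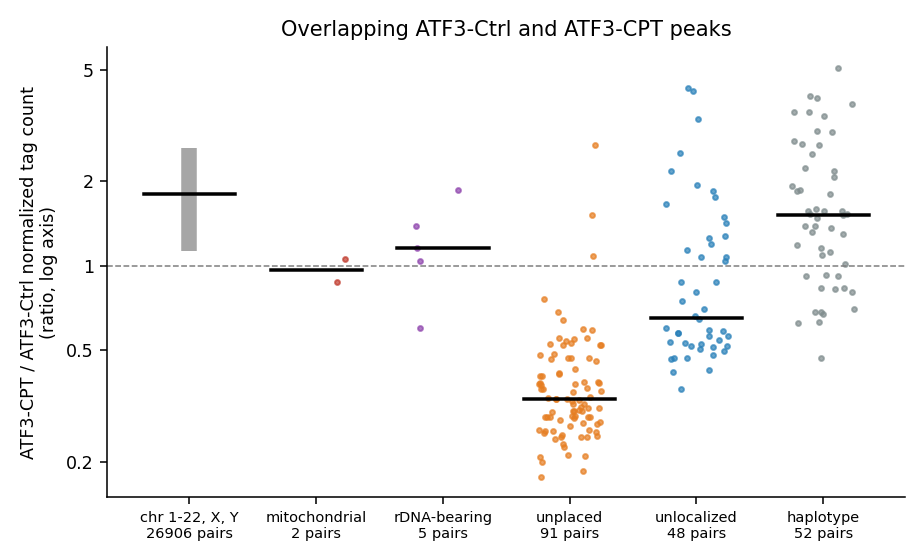
Ratio of the normalized tag count in ATF3-CPT to that in ATF3-Ctrl (log axis) for overlapping peaks, by class of sequence. Points are pairs, horizontal lines are medians, the grey bar the quartiles of the 26906 chromosomal pairs, and the dashed line marks 1. Unplaced pairs lie below the line in 88 of 91 cases, and the chromosomal median is 1.81.

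Between ATF3-KO and ATF3-Ctrl, 46 unplaced pairs had a median ratio of 0.442 and 19 unlocalized pairs 0.999, with 0.662 on the chromosomes. Between p53-CPT and p53-KO, the 32 unplaced pairs had a median of 0.838, the 9 unlocalized pairs 0.569 and the 36 haplotype pairs 0.650, around the 0.668 of the chromosomes.

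Contig peaks lay in repeated sequence more often than chromosomal peaks did, and haplotype and mitochondrial peaks were not examined for this. Of the peaks on contigs, 20.2% (42 of 208) in ATF3-Ctrl, 26.7% (64 of 240) in ATF3-CPT, 39.0% (32 of 82) in ATF3-KO, 46.3% (31 of 67) in p53-CPT and 36.2% (21 of 58) in p53-KO were made up mainly of 32-base words that occur once in the reference chromosomes and contigs. On the chromosomes between 80.8% (ATF3-KO) and 93.3% (ATF3-CPT) of peaks were. The median number of copies of a word was 6 for unplaced peaks in ATF3-Ctrl, 5 in ATF3-CPT and 2 in ATF3-KO, and for chr9_gl000199_random it was 34, 27 and 30. The ATF3-CPT to ATF3-Ctrl ratio had a median of 0.959 over the 30 contig pairs in sequence with a single copy, of which 15 were below 1, and of 0.382 over the 114 pairs in repeated sequence, of which 104 were. How tags that match several places had been assigned is not given in the sources used here.

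The repeats were of several kinds. On chr9_gl000199_random and chr19_gl000208_random, 13 of 25 and 11 of 16 ATF3-Ctrl peaks lay in sequence that repeated itself with at least 60% identity at a distance within 2 bases of 171, about the length of the alpha satellite unit. On chrUn_gl000216, 19 of 42 ATF3-Ctrl peaks and 11 of 21 ATF3-KO peaks contained adjacent CATTC units. On chrUn_gl000225, 15 of 50 ATF3-Ctrl peaks repeated themselves at that identity, each at a distance within 2 bases of 68 or of its multiples. Over all contigs 70 of 208 ATF3-Ctrl peaks repeated themselves so. Chromosomal peaks were not searched for such repeats, so these counts have no share over all peaks beside them.

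AP-1 cores (TGAGTCA or TGACTCA on either strand) were rarer in contig peaks than in chromosomal ones. They were in 3.85% of the contig peaks (8 of 208) of ATF3-Ctrl against 31.04% on the chromosomes, in 12.9% (31 of 240) against 40.6% in ATF3-CPT, and in 0 of 82 against 3.44% in ATF3-KO. The ATF/CRE core TGACGTCA was in 0 of 208, 1 of 240 and 1 of 82 contig peaks of these lists, against 1.93%, 1.41% and 6.05% of the chromosomal peaks. TGATGNAA was more frequent in contig peaks, and most of its matches there lay on chrUn_gl000225 and chrUn_gl000216. It was present in 40.9% (85 of 208) in ATF3-Ctrl, 32.1% (77 of 240) in ATF3-CPT and 36.6% (30 of 82) in ATF3-KO, and in 31.3% (21 of 67) and 37.9% (22 of 58) in p53-CPT and p53-KO. Over all peaks on the reference sequences, the share was 19.8%, 7.41%, 3.14%, 4.60% and 4.38% in the same order of lists. On chrUn_gl000225 alone it was in 42 of 50 ATF3-Ctrl peaks and 18 of 24 ATF3-KO peaks, and its place within the repeat there was not examined. On chrUn_gl000216 it was in 18 of 42 and 7 of 21, and on chr9_gl000199_random in 2 of 25 and 0 of 8. Matches in copies of a repeat are not independent of each other, and TGATGNAA was chosen after the peak sequences had been seen.

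Satellite motifs were also more frequent than on the chromosomes. Adjacent CATTC units were in 9.13% (19 of 208), 8.33% (20 of 240), 13.4% (11 of 82), 14.9% (10 of 67) and 12.1% (7 of 58) of the contig peaks of ATF3-Ctrl, ATF3-CPT, ATF3-KO, p53-CPT and p53-KO, against 0.912%, 0.373%, 6.14%, 1.05% and 1.09% of all peaks. The CENP-B box was in 3 of 208, 5 of 240, 4 of 82, 4 of 67 and 7 of 58 contig peaks in the same order, against 0.204%, 0.0922%, 2.42%, 0.393% and 0.498% of all peaks. Within 300 bp around the centre it was found in 16 of 25 ATF3-Ctrl, 21 of 26 ATF3-CPT and all 8 ATF3-KO, 4 p53-CPT and 7 p53-KO peaks of chr9_gl000199_random. The share over all peaks in that wider window is not given here, so these counts cannot be set beside the percentages above.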

How the data were processed

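ChIP-seq was analysed in 5 HCT116 libraries, 1 per condition, grouped by their labels. The authors used BWA (0.6.1) on hg19 and findPeaks of HOMER (4.1), 1 list per library, and the commands name no input library. Per the file headers, the false discovery rate was 0.001, peaks had to exceed the surrounding 10 kb by 4-fold and at a Poisson p of 1e-04, and the clonal limit was 2. Normalized tag counts were deposited as signal, scaled to 10000000 tags. The deposited findPeaks score counts at most 1 tag per position and was not scaled by the authors. The authors also deposited a focus ratio, which is a fraction, a Clonal Fold Change and a fold over the local region, which are ratios, and a local p-value, which was not used.

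Peaks were assigned to classes by sequence name. Contig peaks were read from GRCh37, whose contigs carry the same numbers and lengths, with pysam (0.24.0), and 32-base words were counted over its chromosomes and contigs. Sequence was read neither for the mitochondrial genome, whose hg19 version was not used here, nor for haplotypes. Motifs were searched on both strands of the deposited peaks, and repeats in 600 bp around the centre. Tags were recovered from the normalized tag count and were whole within 0.1 for 100.0% of peaks. Shares have Wilson intervals, tag counts exact Poisson intervals and ratios exact conditional intervals, all at 95% (scipy 1.17.1) and for counting error only. PCR duplicates are not independent molecules, and tags of repeated sequence may have come from any copy. With 1 library per condition no test was made.

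The scripts were tested on simulated data. Named regions were the 3 highest-scoring peaks of each class and list, all mitochondrial peaks, the highest normalized tag count of each list and regions in all 5 lists, of which not all are printed. The examples of chrUn_gl000222, chr17_gl000204_random, chr9_gl000201_random and chr7_gl000195_random, the ratio split by copy number and the TGATGNAA motif were chosen after values had been seen. The peaks described, their classes and the motifs were chosen with earlier results of these data known. Alternatives covered the score required, the sequences counted, the overlap rule and the motif window. A sequence motif and the region that holds it are not reported here.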

Additional observations from a re-analysis of the deposited data

How the results depend on the processing

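Of 99 alternatives computed for 55 results, 67 were classed as unchanged and 32 moved beyond the counting interval of the value reported. Ratios of medians and numbers of regions, which have no such interval, were classed as unchanged. Among these, the median score of off-chromosome over chromosomal peaks in ATF3-CPT changed sides, from 0.9375 to 1.03 with scores of at least 20. With only peaks of a score of at least 20, the off-chromosome share was 1.62% in ATF3-Ctrl, 0.590% in ATF3-CPT, 7.78% in ATF3-KO, 2.15% in p53-CPT and 2.21% in p53-KO. Among these peaks the haplotype part was 2.01%, 20.8%, 24.4% and 16.1% and the unplaced part 67.1%, 46.2%, 55.6% and 61.3% in ATF3-Ctrl, ATF3-CPT, p53-CPT and p53-KO. Clonal Fold Change was then above 1 in 39.6% (ATF3-Ctrl), 28.9% (ATF3-CPT) and 58.1% (p53-KO) of the off-chromosome peaks. The share over all peaks of that score is not given here, so whether the rise came with strength alone was not tested. With only peaks of at least 30.2 tags per 10000000, the value of the p53-KO threshold, the share was 3.95% in ATF3-Ctrl and 13.8% in ATF3-KO, against 1.65% in p53-CPT and 1.47% in p53-KO. Without haplotypes it was 0.620% in ATF3-Ctrl, 0.343% in ATF3-CPT, 0.754% in p53-CPT and 0.766% in p53-KO. ATF3-KO had the highest share under each of these settings.

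The share of off-chromosome ATF3-Ctrl peaks overlapping ATF3-KO was 31.6% within 500 bp, 29.5% with scores of at least 20 in both lists and 31.4% without haplotypes. For off-chromosome ATF3-CPT peaks it was 18.5%, 22.5% and 25.6%. Within 500 bp, 80.4% of off-chromosome ATF3-Ctrl peaks had an ATF3-CPT peak. Of off-chromosome p53-CPT peaks, 48.9% overlapped ATF3-CPT with scores of at least 20 and 57.97% without haplotypes. The shares over all peaks at these settings are not given here. In 300 bp around the centre TGATGNAA was in 38.3% of ATF3-CPT contig peaks. That motif and the alternatives for the ratio of ATF3-CPT to ATF3-Ctrl were chosen after seeing the data.

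No paired analysis was possible because each condition had 1 library, and leaving out a library would leave its condition empty. The lists hold no peak with a score below threshold, so the absence of a peak gives no level, and the p53 libraries were the shallowest.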
